A study of Mus musculus with 207 samples.

Results

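The cultures compared here are bone marrow-derived macrophages with the lowest and the highest signal of Gpnmb, and they comprise 90 of the 207 arrays of the series. They were chosen by the Gpnmb signal itself. In each sex the log2 of the signal of the brighter Gpnmb probe set was taken, its trend over the rank of the number in the mouse code was removed, and the arrays were ordered by the residual. Of the 93 females, the 23 with the lowest residuals are the low cultures and the 23 with the highest are the high cultures. Of the males, the 24 numbered 55 to 78 were set aside, and the other 90 gave 22 low and 22 high cultures. The arrays in between, 47 females and 46 males, are called the middle cultures.

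The macrophages came from 16-week-old F2 mice of an intercross between AKR and DBA/2 animals, and all of the mice, in every group, were apoE-deficient. Marrow cells became macrophages over 2 weeks of culture, driven by factors that L cells had released into the medium. There is 1 array per mouse, and signals are in arbitrary MAS5 units on a linear scale. No genotype is tied to an array, and a low culture is one with little Gpnmb RNA, whatever allele its mouse carried.

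Gpnmb encodes a glycosylated transmembrane protein of lysosomes, phagosomes and melanosomes that macrophages make in large amounts as they mature, take up debris or load with lipid. Its transcription is driven by Mitf and the related factors Tfeb and Tfe3, and its outer part can be shed from the cell surface. The DBA/2 strain carries a nonsense mutation in Gpnmb, and messages with such a premature stop are usually degraded. In an F2 intercross each mouse inherits the chromosomes of its grandparents in long blocks, so that genes on the same chromosome as a marker often carry alleles of the same strain.

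The ordered Gpnmb residuals rose in a step in each sex. In females the signal of the low cultures ran from 1285 to 11754 MAS5 units with a median of 2067, and that of the high cultures from 13912 to 32981 with a median of 21340. In males the low cultures ran from 1162 to 6529 with a median of 3312, and the high cultures from 21371 to 31525 with a median of 28868. The ranges of low and high cultures did not overlap in either sex, and since Gpnmb chose the groups this is a description. The mean of the high cultures was 6.95 times that of the low cultures in females and 7.99 times in males. The middle cultures lay nearer to the high than to the low ones, with medians of 16022 units in females and 20561 in males.

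The widest gap in the ordered residuals lay above the 21st of the females and above the 23rd of the males, so that 22.6% of the females and 25.6% of the males fell below it. Its width was 0.98 on the log2 scale in females and 0.75 in males. The low females thus included 2 arrays from above the gap, and the low males left out 1 from below it, at 8935 units. Just inside the limit of the low group the signal was 11754 units in females and 5974 in males, and just outside it was 12345 and 8935. For the high group it was 29128 and 21371 units just inside, and 24736 and 21547 just outside. The dimmer Gpnmb probe set followed the brighter one, with a correlation of the log2 signals of 0.88 over the 93 females and 0.90 over the 90 males, and its median was 67.7 units in low and 377.5 in high females, and 84.5 in low and 480.1 in high males.

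**Figure D1:**
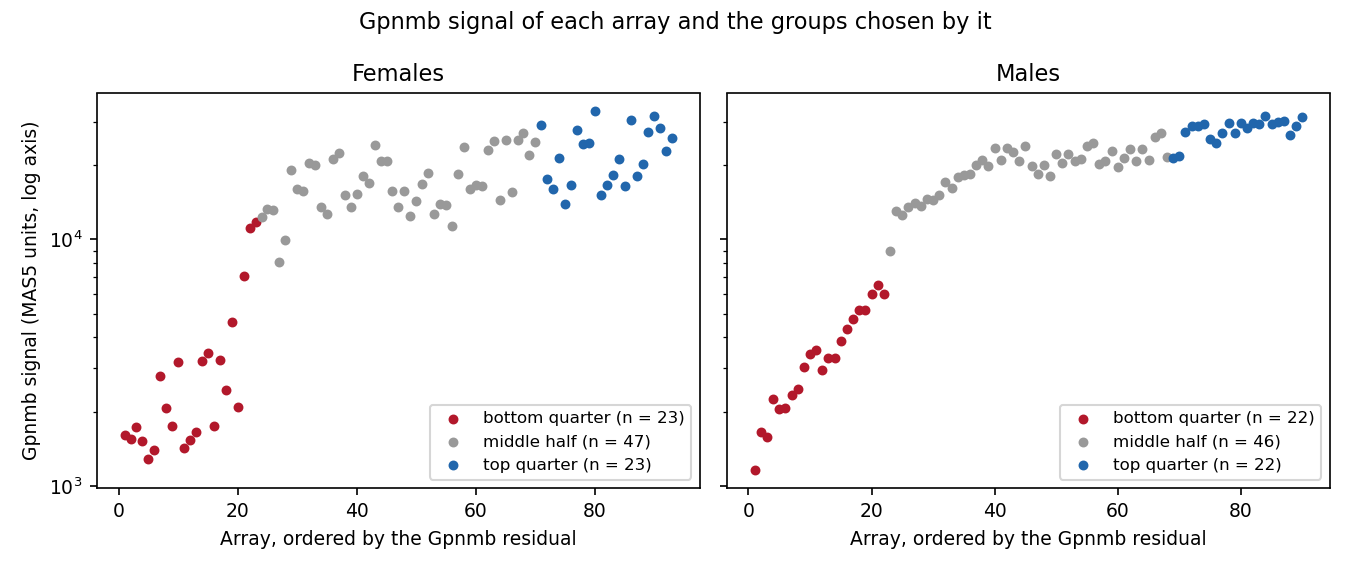
Gpnmb signal of each array in MAS5 units, on a log axis, for females and males, with the arrays ordered by the residual that chose the groups and the low, middle and high cultures in different colours. The widest gap in the residuals lies above the 21 lowest females and the 23 lowest males, which have medians of 1755 and 3318 units. In signal the females below it reach 7067 units and those above it begin at 8127, against 8935 and 12500 in males.

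Measures of array quality and of other cell types overlapped between low and high cultures. The macrophage marker Csf1r, the receptor for the growth factor of the medium, ran from 19327 to 44386 units over the 183 ordered arrays. Of 12 macrophage markers, 11 passed the filter on dim probe sets (Csf1r, Adgre1, Cd68, Cd14, Lyz2, Itgam, Mertk, Fcgr1, Msr1, Mrc1 and Spi1), and 0 were called in either sex (limma), with an unadjusted p under 0.05 for 0 in females and 2 in males, which over 11 genes is too few to set against the shares of all probe sets. No marker of T and NK cells, mast cells and basophils or erythroid cells passed the filter. Over 12 array measures in each sex, namely the array median, the 3'/5' ratios of Gapdh and Actb, the rank of the mouse number and the mean log2 signal of 8 marker and division lists, 0 of 24 differences had a permutation p under 0.05 (100000 permutations, 2-sided), and the smallest was 0.0633 with an adjusted p of 0.95. The B cell, dendritic cell and endothelial means rest on 1 measured gene each, and the neutrophil and melanocyte means on 2 each. The array medians ran from 53.4 to 112.4 units in the low and high females and from 54.7 to 78.9 in the low and high males. The 7 stromal markers had a mean log2 signal of 6.32 to 11.81 in low and 6.54 to 11.67 in high females, a difference of 0.60 (permutation p 0.161), and their part in the results was not tested. In bulk RNA, fewer cells of a type and less RNA per cell cannot be told apart.

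All other probe sets were then compared between low and high cultures, to see which transcripts go with Gpnmb. Of 45037 probe sets, 19828 were tested, those with a signal of at least 100 in at least 61 of the 183 ordered arrays, and a probe set was called at an adjusted p under 0.05 in limma with Benjamini-Hochberg adjustment. In females 16 probe sets were called, or 0.0807% of those tested, with 10 higher and 6 lower in low cultures. In males 9 were called, or 0.0454%, with 4 higher and 5 lower. Called in both sexes in the same direction were 7 probe sets of 6 genes, or 0.0353%. All 16 of the female calls and 8 of the 9 male calls were genes of chromosome 6, where Gpnmb lies, while 894 of the probe sets tested belong to that chromosome. Each of the 18 probe sets called in 1 sex or both had the same sign in the other sex. The share with the same sign among all probe sets was not counted. An unadjusted p under 0.05 was found for 2.85% of the probe sets tested in females and 7.18% in males.

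Osbpl3, which encodes an oxysterol-binding protein-related lipid carrier of membrane contact sites and lies 1.24 Mb from Gpnmb, was higher in cultures with low Gpnmb. In females its brighter probe set ran from 413.4 to 3249 units in low cultures, with a median of 1621, and from 65.1 to 1350 in high cultures, with a median of 209.7. In males it ran from 428 to 3353 with a median of 782.9 in low cultures, and from 79.7 to 1869 with a median of 301.1 in high cultures. The groups overlapped, but 14 of 23 high females and 15 of 22 high males lay below every low culture of their sex. The middle cultures stood between, with medians of 525.6 and 715.1 units. The difference was 2.22 ± 0.22 (SE) on the log2 scale in females, a 4.66-fold higher level in low cultures (adjusted p 2.92e-09, limma), and 1.75 ± 0.27 in males, 3.37-fold higher (adjusted p 0.000442). The other probe set, much dimmer at a mean of 151.6 units, gave 2.58 ± 0.30 in females and 2.58 ± 0.40 in males.

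A cluster of genes 21.7 to 24.2 Mb from Gpnmb, on the side of higher coordinates, held most of the other calls. Usp39, which encodes a splicing factor related to deubiquitinases, was higher in low cultures. In females its signal ran from 1275 to 1801 units in low cultures, with a median of 1547, and from 138 to 1551 in high cultures, with a median of 414.6. In males it ran from 1010 to 1831 with a median of 1417 in low cultures, and from 166.8 to 1373 with a median of 1080 in high cultures. In females 18 of 23 high cultures lay below every low one, and in males 10 of 22. The difference was 1.73 ± 0.26 in females (adjusted p 7.91e-05, limma) and 1.26 ± 0.26 in males (adjusted p 0.0344). With the arrays below the widest Gpnmb gap set against all others, it was not called (adjusted p 0.190 in females and 0.0910 in males, limma).

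The Usp39 signals did not form a continuum. Over the 183 ordered arrays none lay between 515.6 and 824.4 units, and below 600, a limit set after the values were seen, were 0 of 23 low, 8 of 47 middle and 13 of 23 high females, and 0 of 22 low, 12 of 46 middle and 10 of 22 high males. Its other probe set differed by 0.51 ± 0.08 in females, where it was called, and by 0.16 ± 0.06 in males (adjusted p 0.60). The probe set with the step is of a kind (suffix x) whose probes can match other transcripts, and their part in the step was not tested.

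St3gal5, the synthase of the ganglioside GM3, was lower in low cultures. In females it ran from 65 to 527.7 units in low cultures, with a median of 163.6, and from 162.7 to 1046 in high cultures, with a median of 423.3. In males it ran from 78.1 to 662.9 with a median of 217.7 in low cultures, and from 194 to 1116 with a median of 473.6 in high cultures. Of the low cultures, 10 of 23 females and 10 of 22 males lay below every high culture of their sex. The signal fell by 1.41 ± 0.18 on the log2 scale in females, so that high cultures had 2.66 times the level of low ones (adjusted p 4.11e-06, limma), and by 1.07 ± 0.21 in males, 2.10 times (adjusted p 0.0287). A second probe set fell by 0.70 in females (adjusted p 0.0544) and by 0.62 in males (adjusted p 0.0330).

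Mrpl35, a protein of the large subunit of the mitochondrial ribosome, was also lower in low cultures. Its median was 1056 units in low and 1484 in high females, with ranges of 620.4 to 1697 and 1001 to 2446, and 1066 in low and 1735 in high males, with ranges of 721.2 to 1941 and 1069 to 2737. The signal fell by 0.70 ± 0.07 in females (adjusted p 7.20e-09) and by 0.65 ± 0.10 in males (adjusted p 0.000918, limma). The groups overlapped, with 9 of 23 low females and 11 of 22 low males below every high culture of their sex.

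Tgoln1, a membrane protein that cycles through the trans-Golgi network, was higher in low cultures. In females it ran from 1370 to 2346 units in low cultures, with a median of 1773, and from 934 to 1631 in high cultures, with a median of 1481. In males it ran from 2117 to 3732 with a median of 2860 in low cultures, and from 1764 to 3083 with a median of 2233 in high cultures. The difference was 0.32 ± 0.05 in females and by 0.32 ± 0.07 in males (adjusted p 0.000322 and 0.0330, limma). In females 21 of 23 low cultures had more Tgoln1 than every high culture, while in males 5 of 22 did. Its 3 other probe sets were not called in either sex, with differences of 0.09 to 0.29 in females and 0.16 to 0.21 in males.

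Mob1a, a coactivator of the Lats kinases of the Hippo pathway, lies 34.3 Mb from Gpnmb and was lower in low cultures. Its median was 4409 units in low and 5288 in high females, with ranges of 3238 to 5895 and 4637 to 6754. In males it was 4473 in low and 5257 in high cultures, with ranges of 3525 to 5693 and 4253 to 6371. Of the low cultures, 16 of 23 females but 7 of 22 males lay below every high culture of their sex. The signal fell by 0.29 ± 0.05 and by 0.22 ± 0.04 (adjusted p 0.00234 and 0.0330, limma). The brightest probe set of Mob1a, at a mean of 8127 units, differed by -0.06 ± 0.05 in females and -0.03 ± 0.04 in males, neither called. The male call of Mob1a was lost without the mouse number as a covariate (adjusted p 0.139) and with the arrays shifted to the same median (adjusted p 0.109), and that of St3gal5 without the number (adjusted p 0.0852).

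**Figure D2:**
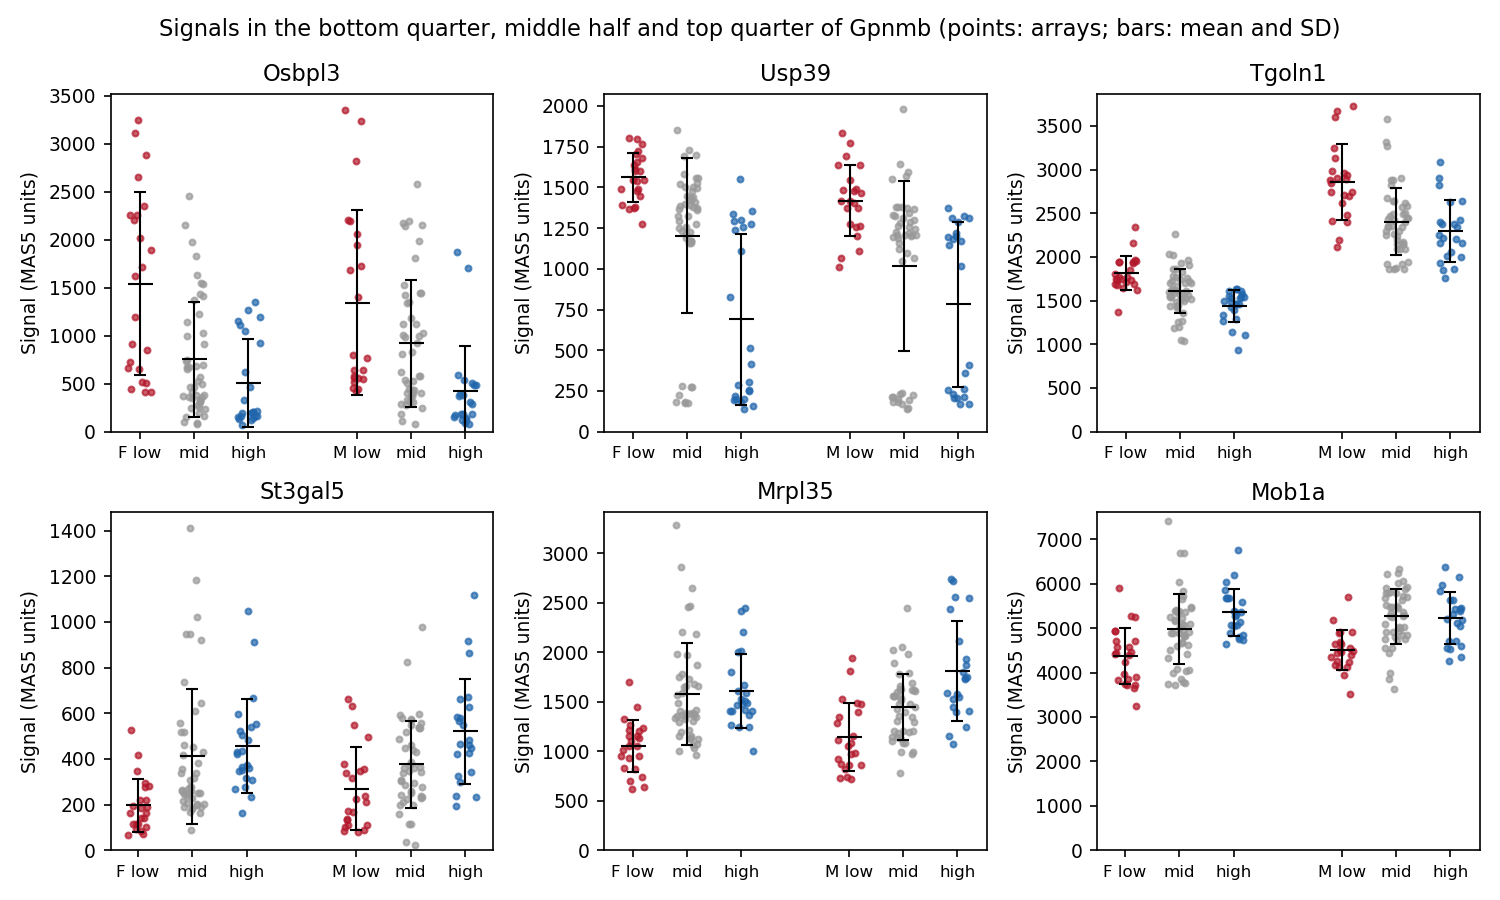
Signals in MAS5 units of the 6 genes called in both sexes, with 1 point per array, in low, middle (mid) and high Gpnmb cultures of females (F) and males (M), and bars for the mean and SD. Osbpl3 is shown by its brighter probe set. Usp39 shows a separate group of arrays below 600 units that holds 13 of 23 high females, 10 of 22 high males and no low culture.

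In females 8 further genes were called, which lie on chromosome 6, and 7 of them are named here with their values known. Higher in low cultures were Rpia, an enzyme of the pentose phosphate pathway (0.40 ± 0.08), Rnf181, a ubiquitin ligase (0.29 ± 0.05), Capg, an actin-capping protein abundant in macrophages (0.57 ± 0.11), Elmod3 (0.64 ± 0.13) and Tia1, an RNA-binding protein of stress granules (0.31 ± 0.07). Lower were Kcmf1, a ubiquitin ligase (-0.34 ± 0.06), and Isy1, a splicing factor (-0.55 ± 0.10). In males these 7 genes had the same sign without being called, with log2 differences from 0.19 for Rpia to 0.34 for Elmod3 and from -0.29 for Kcmf1 to -0.44 for Isy1. Capg ran from 7704 to 14758 units in low females, with a median of 12623, and from 3083 to 11882 in high females, with a median of 8422, and 15 of 23 low females lay above every high one. A second Capg probe set, far dimmer, differed by 0.42 ± 0.32 in females and -0.15 ± 0.37 in males.

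The genes nearest to Gpnmb were not among the calls. Of the 12 measured genes closest to it, 6 on each side, 0 were called in either sex or in the fit of both sexes described below. Of all probe sets 0.0807% were called in females, 0.0454% in males and 0.318% in that fit, so 0 of 12 is near the background. Just beyond the 12 lie Gsdme at 1.15 Mb, called in that fit, and Osbpl3 at 1.24 Mb, called in each sex. On the side of lower coordinates the 6 were Atp6v0e2, Lrrc61, Rarres2, Repin1, Tmem176a and Tmem176b, and on the other side Malsu1, Igf2bp3, Tra2a, Ccdc126, Npy and Mpp6. Malsu1, a factor of mitochondrial ribosome assembly 0.016 Mb away, differed by -0.02 ± 0.04 in females and by -0.0046 ± 0.05 in males. Tmem176b, a membrane protein of macrophages and dendritic cells at a mean of 19424 units, differed by 0.14 ± 0.11 and -0.12 ± 0.14. Npy, neuropeptide Y, had the largest values of the 12 in both sexes, with low cultures higher by 0.79 ± 0.37 and 0.78 ± 0.29 (adjusted p 1.00 and 0.60, limma).

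Since the called probe sets had the same sign in both sexes, a fit of both with a common difference was added after the separate fits had been seen. It called 63 probe sets, or 0.318% of those tested, 31 higher and 32 lower in low cultures. Of these 53, from 39 genes, belong to chromosome 6, 6 have no single place in the annotation and 4 lie on other chromosomes. The test of the difference between the sexes itself, an interaction term in the same model, called 0 of 19828 probe sets (limma), and 496 or 2.50% had an unadjusted p under 0.05.

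On chromosome 6 the calls were unevenly spread around Gpnmb. In the fit of both sexes 4 of 38 probe sets up to 5 Mb on the side of higher coordinates were called, 0 of 48 from 5 to 20 Mb, 15 of 47 from 20 to 30 Mb, 16 of 130 from 30 to 40 Mb, 7 of 78 from 40 to 60 Mb and 9 of 306 beyond. On the side of lower coordinates 0 of 24 were called up to 5 Mb, 1 of 136 from 5 to 20 Mb and 1 of 87 beyond. The 1 between 5 and 20 Mb was Luc7l2, a splicing factor (-0.67 ± 0.13). Within 20 Mb on either side, the distance used for local effects, 5 of 246 probe sets (2.03%) were called, against 7.41% of those farther on the chromosome and 0.0235% of the 17006 on other chromosomes. In each sex alone the 2 calls within 20 Mb were the probe sets of Osbpl3.

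**Figure D3:**
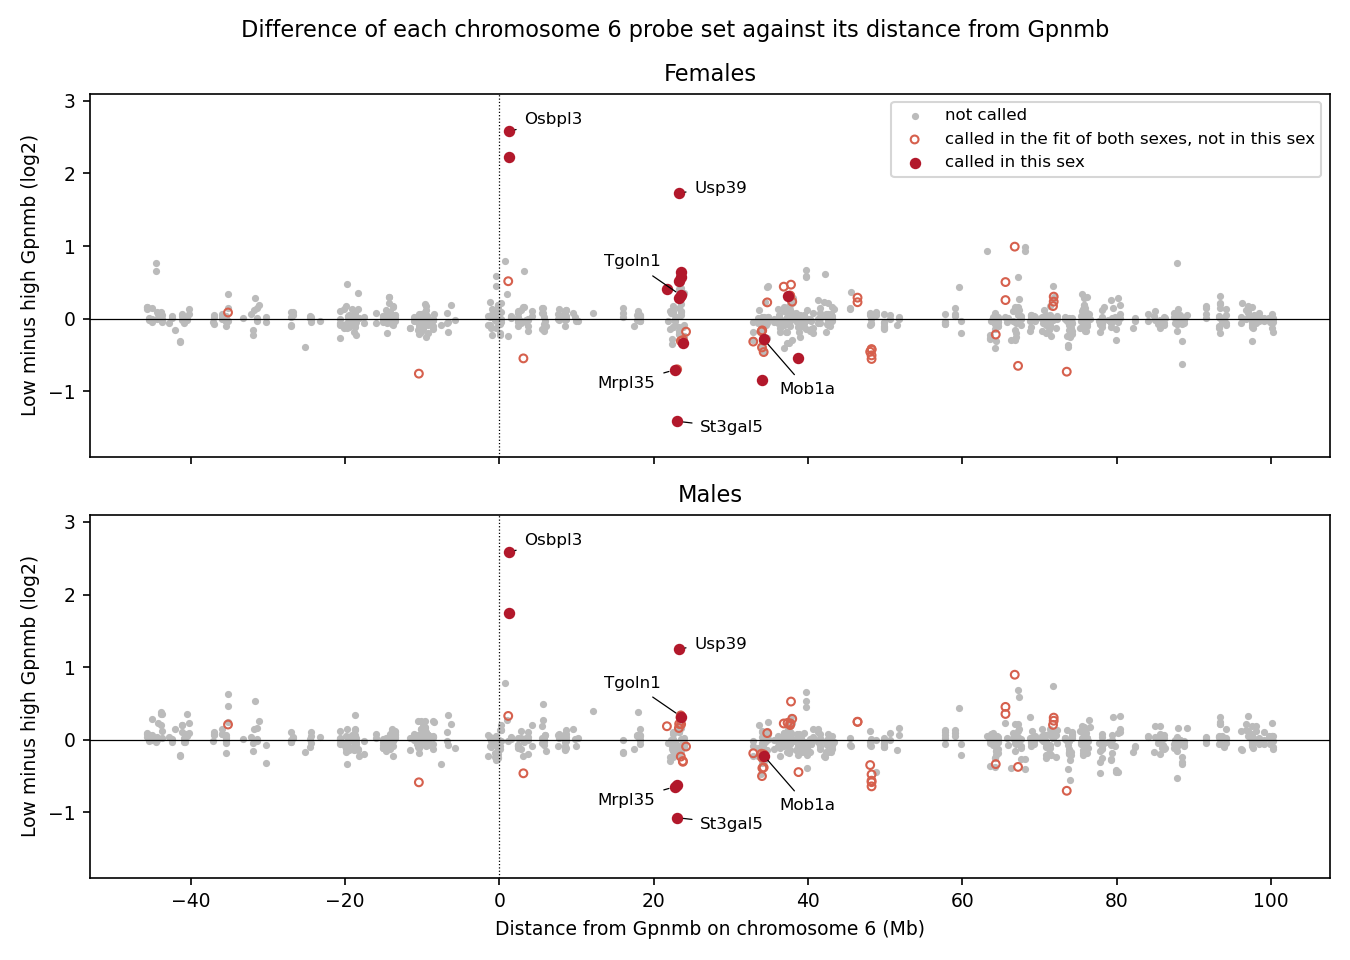
Low minus high difference in log2 of each tested chromosome 6 probe set (points) against its distance from Gpnmb in Mb, for females and males, with filled points called in that sex and open points called in the fit of both sexes alone. Osbpl3 stands at 1.24 Mb and Usp39, St3gal5, Mrpl35 and Tgoln1 near 23 Mb in both sexes.

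The same fit called 33 genes of chromosome 6 beyond the 6 called in each sex, of which some are named here with their values known. Higher in low cultures were Atg7, the enzyme that activates ubiquitin-like proteins for autophagy, by 0.31 ± 0.06 in its brightest probe set and 0.48 ± 0.09 in the dimmest (adjusted p 0.00121 and 0.000601), and Atp6v1e1, a subunit of the proton pump of lysosomes, by 0.19 ± 0.04. Also higher were Mbd4, a DNA repair glycosylase (0.94 ± 0.18), Bid, which relays death receptor signals to mitochondria (0.27 ± 0.06), Suclg2, an enzyme of the citric acid cycle (0.27 ± 0.05), and Gsdme, a pore-forming gasdermin 1.15 Mb from Gpnmb (0.42 ± 0.10). Lower were Apobec1, the deaminase that edits apolipoprotein B messages (-0.72 ± 0.15), all 4 tested probe sets of Frmd4b (-0.45 to -0.57), Mthfd2, an enzyme of mitochondrial folate metabolism (-0.42 ± 0.11), and Arpc4, a subunit of the actin-branching Arp2/3 complex (-0.28 ± 0.06). The farthest of them, Apobec1, lies 73.5 Mb from Gpnmb. For Atg7, Mbd4, Bid, Arpc4, Mthfd2 and Atp6v1e1, 1 or more further probe sets had the same sign and were not called.

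The genotypes of the males describe the length of parental blocks in these mice. Over 89 markers of chromosome 6, the share of males homozygous for the DBA/2 allele ran from 22.1% to 32.4% with a median of 25.7%. Of males homozygous for DBA/2 at 1 marker, 97.2% were so at a second marker 1 to 5 Mb away, 83.9% at 20 to 30 Mb, 74.6% at 30 to 40 Mb and 56.4% at 60 to 80 Mb. These shares describe the males as a group, since no genotype is matched to an array.

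**Figure D4:**
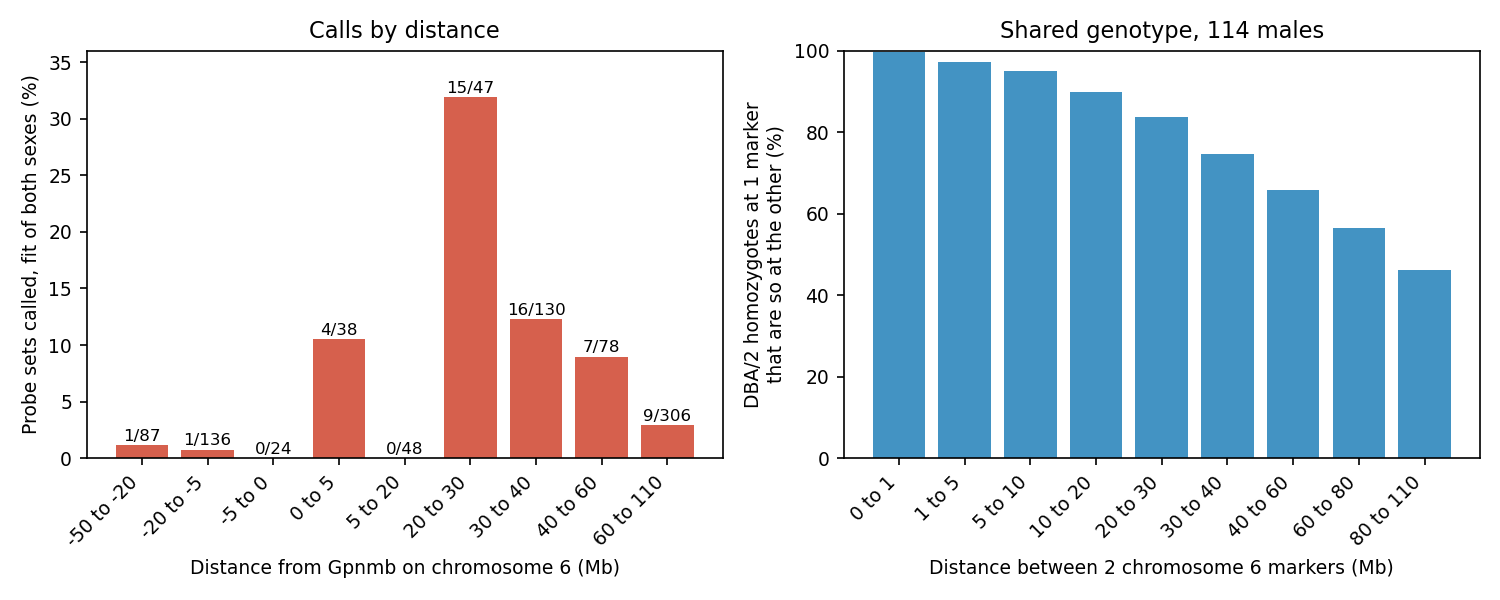
Left, percent of tested chromosome 6 probe sets called in the fit of both sexes by distance from Gpnmb in Mb, with the number called and tested over each bar. Right, percent of the males homozygous for DBA/2 at 1 chromosome 6 marker that were so at a second one, by the distance between the markers in Mb, which fell from 97.2% at 1 to 5 Mb to 56.4% at 60 to 80 Mb.

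Pgs1 was the 1 call in either sex that lies off chromosome 6. The gene, on chromosome 11, encodes the phosphatidylglycerophosphate synthase of cardiolipin synthesis. In males its signal ran from 85.1 to 179.6 units in low cultures, with a median of 124.2, and from 154 to 335.3 in high cultures, with a median of 194.3, and 17 of 22 low males lay below every high one. The difference was -0.72 ± 0.10 in males (adjusted p 7.37e-05, limma) and -0.62 ± 0.14 in females (adjusted p 0.0533). The 3 other probe sets of Pgs1, which were brighter at means of 1478 to 1759 units, differed by -0.13 to -0.14 in males and by -0.02 to 0.01 in females and were not called. In the fit of both sexes Prss16 (-0.45 ± 0.11), Adam15 (-0.25 ± 0.06) and Derl1 (-0.17 ± 0.04) were the others off chromosome 6, all lower in low cultures, and 3 further probe sets each of Adam15 and Derl1 were not called.

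Lists of genes from programs linked to Gpnmb and from other cell types were counted beside all genes. Of 258 genes on 23 lists, 179 were measured and 0 were called in females or in males (limma), against 0.0807% and 0.0454% of all probe sets, so that the count is near the background. An unadjusted p under 0.05 was found for 3 of the 179 in females and 14 in males, beside 268 and 730 of all 10127 genes. The fit of both sexes called 1, Atg7, which lies on chromosome 6. The median difference of the 10127 genes tested was 0.00 in females and -0.01 in males, and that of the lists with over 1 measured gene ran from -0.28 to 0.55 and from -0.34 to 0.36.

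The 4 transcription factors of the Mitf family were not called in either sex (limma). The low minus high difference in log2 was 0.05 ± 0.05 in females and -0.01 in males for Mitf, 0.06 ± 0.11 and 0.05 for Tfec, -0.01 ± 0.06 and -0.07 for Tfeb, and -0.02 ± 0.05 and -0.07 for Tfe3. The 27 measured lysosomal genes had medians of 0.02 and 0.00, and the 12 genes of lipid-associated macrophages had medians of 0.06 and 0.04. Among the reported partners of Gpnmb, Adam10, a protease able to shed it, differed by 0.01 ± 0.06 and 0.13, and Sdc4 by 0.14 ± 0.24 and 0.08. The 13 autophagy genes had medians of 0.00 and 0.04, the 11 osteoclast genes 0.08 and 0.12, the 9 genes of cholesterol efflux 0.00 and -0.09 and the 15 of sterol synthesis 0.13 and 0.04.

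The other lists had no call in either sex (limma). The 12 inflammatory genes had medians of -0.28 in females and -0.23 in males, with Nfkbiz, an inducible cofactor of NF-kB, at -0.32 ± 0.12 and -0.37, and the chemokine Ccl3 at -0.46 ± 0.19 and -0.30. The cytokine Il1b was at -0.50 ± 0.44 in females and 0.50 in males, and Cxcl10 at 0.21 ± 0.19 and -0.25. The 23 cell division genes had medians of -0.15 and -0.34. Their mean log2 signal, without the mouse number as a covariate, was 0.15 higher in low than in high females (permutation p 0.612). That value differs from the median both in being a mean over the genes and in the covariate. The 2 neutrophil markers had medians of 0.14 and 0.12, against -0.14 in females for their mean without the number. The 7 stromal markers had a median of 0.55 in females and -0.01 in males, the 16 interferon response genes 0.09 and -0.20, the 5 class II genes 0.01 and 0.36, and the 6 genes of alternative activation -0.08 and -0.09.

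**Figure D5:**
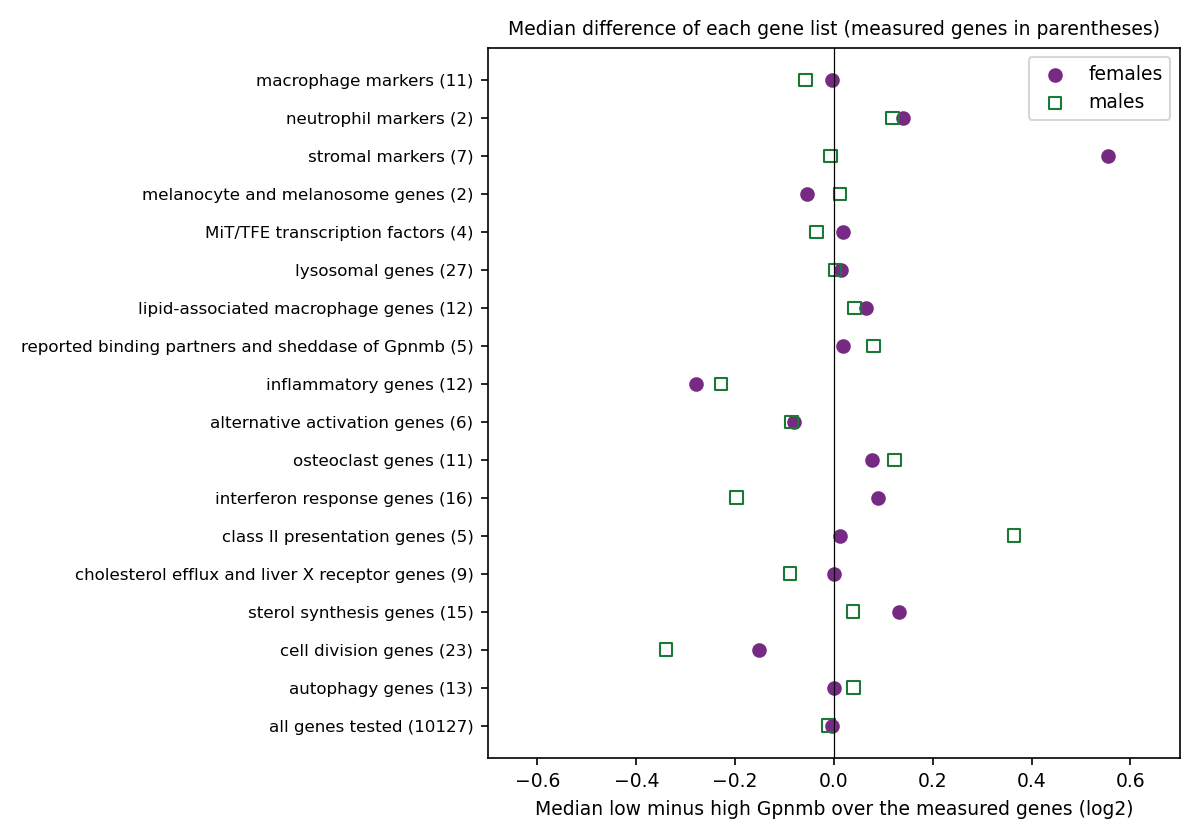
Median low minus high difference in log2 over the measured genes of each list with over 1 measured gene, for females (filled circles) and males (open squares), with the number of measured genes in parentheses. The median of all 10127 genes is 0.00 in females and -0.01 in males, and no gene of a list was called in either sex.

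The 24 males numbered 55 to 78, which the groups did not use, were ordered by Gpnmb in the same way, with 6 low cultures at 1908 to 3790 units and 6 high cultures at 24661 to 35125. All 6 genes called in both sexes had the same sign here. St3gal5 ran from 7.7 to 159.2 units in low and from 274.2 to 465.6 in high cultures, without overlap, with a difference of -3.23 on the log2 scale (exact permutation p 0.00216, 2-sided, the smallest that 924 splits allow). The low cultures had a St3gal5 median of 44.95 units, under the limit of 100 of the filter, so the size of this difference rests on signals near background. Usp39 was 1712 to 1838 units in low and 114.2 to 1807 in high cultures, a difference of 2.28 (exact permutation p 0.0108). Mrpl35 differed by -0.69 (exact permutation p 0.00866) and the dimmer probe set of Osbpl3 by 1.93 (exact permutation p 0.0433), while Tgoln1 at 0.10 and Mob1a at -0.19 had exact permutation p of 0.55 and 0.188. Probe sets outside the 84 genes examined here were not tested in these males, so no background share can be given. Of the 84, 11 had an exact permutation p under 0.05. The other 7 were Lrrc61 (0.37), Tmem176a (1.22), Mpp6 (0.54), Acta2 (1.10), Tfec (-0.75), Ctsk (-0.91) and Gabarap (-0.18). Of these, Tmem176a, Acta2 and the last 3 did not have 1 sign over these males and both sexes of the main groups. After Benjamini-Hochberg adjustment over the 84 genes, 0 passed, with a smallest adjusted p of 0.182 from the exact permutation tests. That value belongs to St3gal5, whose exact p was the smallest possible. With so few splits no gene could pass on its own, so the lack of a pass says little.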

How the data were processed

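Expression was measured on Affymetrix 430v2 arrays in 207 F2 mice. The authors made the intensity values with MAS5, relative to the brightness of the entire array, and they range from 0.1 to 67866.1. The authors deposited the genotypes as a score per mouse and marker (homozygous for either strain or heterozygous), counted here for the males, and 95 columns of further mice were not used. No pair of arrays was identical. The number of arrays limits the precision.

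Logs were log2(signal + 1). The limma model (3.58.1 in R 4.3.3, eBayes with trend) held the Gpnmb group and the rank of the mouse number, in each sex apart and in both with an interaction or a common difference. The 2 Gpnmb probe sets and 64 control probe sets were left out. Permutations used Python 3.11.15, numpy 2.4.6, scipy 1.17.1 and pandas 2.3.3, figures matplotlib 3.10.9. The model was tested on simulated data. It recovered 34% of changes of 0.25 on the log2 scale in females and 28% in males. Of changes of 0.5 it recovered 74% and 80%, and of changes of 1 all in both sexes. Small differences can thus go without a call.

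The annotation of the platform names 1 gene for 34958 of the 35890 probe sets it holds and several for 932, and 34754 matched the gene table of GRCm38.p6 by gene identifier. Distances run between gene ends in that table, and the array files name no build. Genotype positions are those of the table, whose build is not given in the sources used here.

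The groups, gene lists and alternatives were chosen with earlier results of these data known. Named were Gpnmb, the 6 nearest measured genes on each side, up to 12 genes within 20 Mb and 8 per direction elsewhere called in both sexes with the largest mean difference, and up to 4 genes of each list with the smallest larger p of the sexes. Lists used 1 probe set per gene, the brightest. Alternatives changed the covariates, scaling, filter, pseudocount, grouping, moderation and test. The result of 1 gene called in females is not reported here.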

Additional observations from a re-analysis of the deposited data

Results flagged for a closer look

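In the males numbered 55 to 78, 14 groups of 6 arrays were examined for an array far from the others, and chance marks about 1 in 20 such groups. The lowest Mob1a signal in the high Gpnmb group, 3540.6 units, lay far below the other 5, at 5448 to 6390. The lowest Gpnmb signal in the same group, 24660.9 units, lay below the other 5, at 31981 to 35125. Gpnmb itself chose that group, so this is a description and the rate of 1 in 20 does not apply to it.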

How the results depend on the processing

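No paired analysis was possible because a mouse code names a single animal and pairs none. Over the 12 results of the 6 genes called in each sex, 256 alternatives reversed 0 signs. Over all arrays 182 of 220 kept the call. Of the 38 losses, 10 came from splitting all arrays at the median residual and 9 from the Mann-Whitney test with Bonferroni adjustment, which called Osbpl3 in neither sex. Within 3 blocks of the mouse number, with fewer arrays, 36 of 36 kept the sign and 2 the call. Against 16 calls in females, 9 in males, 7 in both and 2 within 20 Mb, the Mann-Whitney test gave 5, 1, 0 and 0. The split at the median gave 3, 0 and 0 for females, males and both. The arrays below the widest gap against all others, a grouping added after the data were seen, gave 25, 29, 12 and 5. Grouping on the other Gpnmb probe set gave 30 in males and 14 in both. The 3 number blocks as a covariate gave 16 in males, as did wider groups of 1/3 of the arrays each, the slope on the Gpnmb residual 14 in males and 4 within 20 Mb, and the 3'/5' ratios as covariates 5 in males. The cell division mean as a covariate gave 27 in females and 5 within 20 Mb, and a signal of at least 200 gave 1 within 20 Mb. Within the first, middle and last block of the number 3, 1 and 0 were called in females and 0, 0 and 0 in males. The cause of these changes was not tested, nor was that of the few calls within blocks, where the arrays were fewer. Over all arrays, most calls lay on chromosome 6 under every alternative that made calls, the fewest 9 of 16 for the wider groups in males, except that the 1 Mann-Whitney call in males lay elsewhere. Signals near background limit the dim probe sets of Osbpl3, Pgs1 and Elmod3.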

Other observations

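Probe sets of 1 gene disagreed for several transcripts that went with Gpnmb. The 2 tested probe sets of Elmod3, a regulator of small GTPases, differed in opposite directions in the fit of both sexes, by 0.49 ± 0.09 and -0.27 ± 0.07 on the log2 scale (adjusted p 0.000298 and 0.0295, limma). Those of Gsdme gave 0.42 ± 0.10 and -0.13 ± 0.08 (adjusted p 0.0123 and 0.77). Of the 6 tested probe sets of Luc7l2, 1 was called, at -0.67 ± 0.13, and the other 5 ran from -0.20 to 0.00. Isy1 gave -0.50 ± 0.07 in its dimmer probe set and -0.05 ± 0.05 in the brighter. The brightest probe set of Kcmf1 gave -0.11 ± 0.04 (adjusted p 0.44, limma), while its others were called at -0.32 ± 0.04 and -0.30 ± 0.06. Tia1 was called by its brightest probe set at 0.27 ± 0.06, and its others ran from 0.04 to 0.12 and were not called.

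In the 24 males numbered 55 to 78, the Pgs1 probe set called in males ran from 241.3 to 358.4 units in the 6 low cultures and from 300.3 to 1023 in the 6 high cultures, with medians of 275.3 and 728.7, and the middle 12 had a median of 451.7. It was chosen after its values were seen and was not tested there. Other genes named with their values known were looked at there too, by the probe set with the smallest p in the fit of both sexes. Luc7l2 (0.25), Atp6v1e1 (-0.06) and Frmd4b (0.02) had the opposite sign to the main groups in their low minus high difference in log2. Capg, Rnf181, Kcmf1, Isy1, Mbd4, Atg7, Apobec1, Rpia, Tia1, Elmod3, Gsdme, Bid and Suclg2 kept their sign.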
